A study of Mus musculus with 2 samples.

Results

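Mid round spermatids are haploid germ cells that have left early spermiogenesis and have not yet begun to elongate. In these data they were the 436 of 2552 cells (17.1%) whose highest of 6 scores was the R score. Each score was the mean of 4 genes after log2(1 + CPM) values (CPM, the UMIs of a gene scaled to a common cell total) had been turned into z-scores over all cells. The R genes were 1700029E06Rik, 4930596D02Rik, 1700001P01Rik and Asb15. The members were thus chosen by the measured expression of these genes. The other scores marked early meiotic prophase spermatocytes (E), pachytene spermatocytes (P), early round spermatids (S), the late round to elongating transition (T) and condensing spermatids (L). The cells came from whole testis of 2 wild-type C57Bl/6J Crl mice, which were 8 weeks old, received no treatment and form 1 group. Each mouse gave 1 Chromium 3' v2 library, so every comparison between the mice sets 1 animal against 1 animal. Mouse 1 contributed 1237 cells with 27450497 UMIs, and mouse 2 contributed 1315 cells with 30302332 UMIs, and the libraries shared 0 cell barcodes. The authors deposited UMI counts made after downsampling of reads between the libraries, and they were used as given.

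After meiosis, the round spermatid builds the acrosome, a secretory vesicle that spreads over the nucleus and later helps the sperm to reach the egg, and starts the axoneme of the tail. Transcription is high at this stage and is driven in part by testis-specific regulators such as CREM. Many transcripts are stored and translated only after transcription has stopped, when protamines replace the histones. Sex-linked genes, which are silenced in pachytene spermatocytes, become active again in part of this period.

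The R class held 181 cells of mouse 1, or 14.6% of its cells (exact 95% binomial interval 12.7 to 16.7%), and 255 cells of mouse 2, or 19.4% (17.3 to 21.6%). The intervals cover counting error only. S cells numbered 328 and 378 in mouse 1 and mouse 2, and T cells numbered 99 and 127. Summed over the class, the depth was 4081634 UMIs in mouse 1 and 5872319 UMIs in mouse 2. The median R cell had 22451 and 21552 UMIs, more than the median S cell of the same mouse, which had 18306 and 19439.5 UMIs. Against T cells, with 23359 and 20297 UMIs, the order of the medians differed between the mice. By means, R cells had fewer UMIs than T cells in both mice, at 22551 and 23029 against 22986 and 24619. After thinning every cell to 5000 UMIs, the median R cell had 2310 genes in mouse 1 and 2312 in mouse 2. These values were below those of S cells, at 2339 and 2363 genes, and above those of T cells, at 2094 and 2084 genes. Without thinning, the median R cell had more genes than the median S cell of the same mouse, by 232 and 71.5 in mouse 1 and mouse 2. A doublet caller marked 4 R cells, 2 in each mouse.

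Since the R genes chose the members, their levels are a description. 1700001P01Rik had 888 CPM in R cells of mouse 1 and 848 CPM in mouse 2, 4930596D02Rik had 309 and 359 CPM, 1700029E06Rik had 245 and 216 CPM, and Asb15 had 129 and 132 CPM. The R score of the members had a median of 1.61 and ran from 0.118 to 1.91. It exceeded the next highest score by 0.00635 to 2.03, with 62 members within 0.25 of the next score. Outside the class, 42 cells had R as their second score within the same distance, and 26 of these were S cells, 15 were T cells and 1 was an L cell. The 5 closest members had R scores with a median of 1.16, and the 5 closest cells outside had a median of 1.28.

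Genes of the neighbouring scores were present in the members. On the log2(1 + CPM) scale, the median R cell had 7.02 and 6.94 for the S gene 1700001F09Rik in mouse 1 and mouse 2, and 5.48 and 5.64 for the S gene Iqca. The T gene Pex5l had medians of 6.27 and 6.95. The medians of Ssxb1, Ssxb2, Hemgn and Tmco5b were 0 in both mice. Among the members, T was the second score in 196 cells (45.0%), S in 162 (37.2%), E in 55, P in 18 and L in 5. In the plot of S against T scores, the members with T as second score spread along the T axis and those with S along the S axis, which follows from grouping the members by these scores.

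**Figure D1:**
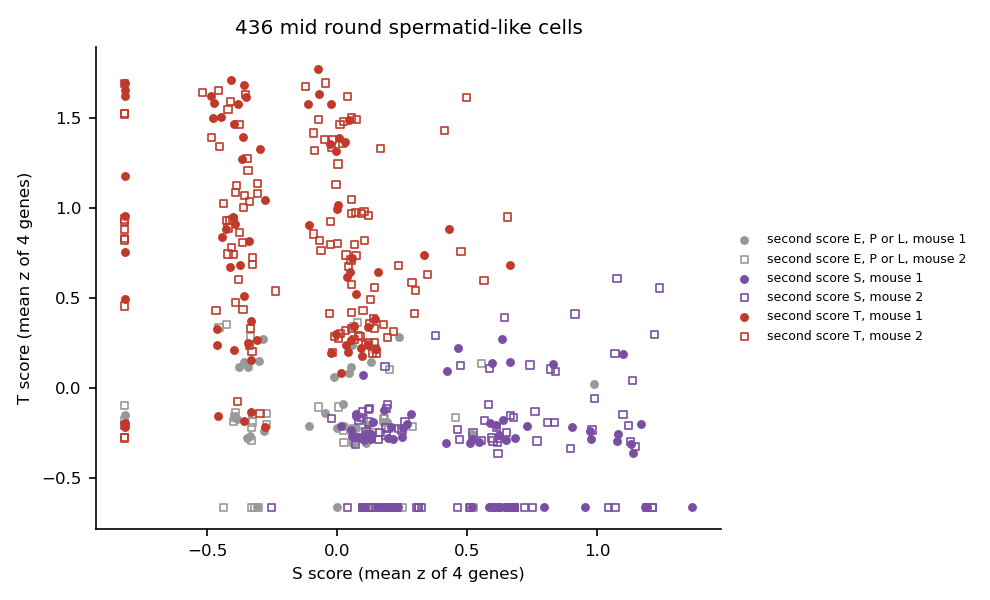
Score of each of the 436 members for the S genes (x axis) and the T genes (y axis), both as mean z-scores of 4 genes, coloured by the second highest score, with filled circles for mouse 1 and open squares for mouse 2. Points on the left edge have no UMI for any S gene and points on the bottom edge none for any T gene. Both mice fill both arms, and few cells score high on both axes.

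The label was checked with 16 round spermatid markers outside the rule. Of these, Sun5 had been given as a marker with the label, so it is not an outside check. In mouse 1, 11 of the 16 had their highest CPM of the 6 classes in R cells, and in mouse 2 this held for 10. Over all 14196 rows tested below, it held for 1917 in mouse 1 and 1900 in mouse 2. In both mice, 14 of the 16 had over 1.5 times the CPM of all cells together. The same count was not made for T cells or over all rows, so it does not tell R from T cells. Sun5, which joins the sperm head to the tail at the nuclear envelope, had 391 and 403 CPM in R cells of mouse 1 and mouse 2, against 118 and 154 CPM in S cells and 220 and 216 CPM in T cells. Tex36 had 1065 and 1083 CPM in R cells, 473 and 594 CPM in S cells and 436 and 427 CPM in T cells. Catsper3, a pore subunit of the sperm calcium channel, had 336 and 351 CPM in R cells, 128 and 175 CPM in S cells and 157 and 165 CPM in T cells. For these 3 genes, named from the markers that were highest in R cells, both R libraries lay above all S and T libraries in unscaled CPM. Tssk2, a testis serine kinase, was higher still in T cells, at 1718 and 1851 CPM, than in R cells, at 1148 and 1263 CPM. Dpy19l2, which anchors the acrosome to the nucleus, was highest in P cells, at 161 and 151 CPM, with 79.4 and 89.1 CPM in R cells. By the test described below, 14 of the 16 were called higher in R than in S cells, against 19.1% of all rows. The marker check did not separate R from T cells in the same way, since 1 of the 16 was called higher than in T cells (Dpy19l2), 1 was called lower (Tssk2) and 14 were not called, where 12.5% of all rows were higher and 17.9% lower. After scaling for library composition (TMM, the trimmed mean of M-values), the number with their highest level in R cells was 9 in mouse 1 and 8 in mouse 2, while 4 and 5 were highest in T cells. With this scaling the log2 fold change between R and T cells was 0.36 for Sun5, 0.81 for Tex36 and 0.59 for Catsper3, but -0.28 for Acrv1 and -0.03 for each of Spaca3 and Catsper4.

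Markers of earlier germ cells were present to different degrees. The 5 early spermatocyte markers outside the rule summed to 108 and 87.5 CPM in R cells of mouse 1 and mouse 2, against 2565 and 1888 CPM in E cells. The 4 pachytene markers outside the rule differed among themselves. Ldhc, the germ cell lactate dehydrogenase, had 7053 and 7232 CPM in R cells against 9620 and 10043 CPM in P cells. Piwil1, which binds small RNAs of the germ line, had 9.80 and 10.7 CPM in R cells against 165 and 190 CPM in P cells, and Mybl1, a meiotic transcription factor gene, had 2.695 and 6.47 CPM against 46.2 and 77.9 CPM. Spag6 went the other way, with 721 and 735 CPM in R cells, its highest class, against 16.8 and 19.2 CPM in P cells. None of the 4 was called against S cells. The 4 markers of early round or secondary spermatocyte cells outside the rule summed to 1558 and 1706 CPM, against 2082 and 2150 CPM in S cells. In P cells they summed to 2192.5 and 2228.5 CPM. Hspa2 made up most of the sum in R cells, at 883 and 921 CPM. Only Ccna1 was called lower than in S cells, and the other 3 were not called. Of these, Pgk2 went the other way, with 575 and 670 CPM in R cells against 407 and 504 CPM in S cells. Markers of somatic cells were low. The 11 Sertoli markers summed to 35.0 and 22.5 CPM. The most abundant was Clu in mouse 1, at 12.25 CPM, and Cst9 in mouse 2, at 7.32 CPM. Sox9, Wt1 and Amh had 0 UMIs in R cells of both mice. The 7 Leydig markers summed to 38.0 and 24.2 CPM, and the 7 macrophage markers to 3.68 and 9.71 CPM. Of these, Cd68 had 0 UMIs, Lyz2 was highest in R cells at 0.490 and 2.89 CPM, and Ptprc, with 6 and 15 UMIs, was called higher than in S cells (adjusted p = 0.0055 in edgeR). The 5 peritubular or endothelial markers summed to 3.92 and 4.26 CPM, and Acta2, with 10 and 16 UMIs, was called higher than in S cells (adjusted p = 0.0076). The 4 blood markers summed to 4.17 and 9.03 CPM. Transcripts of condensing spermatids were more abundant. The 9 condensing spermatid markers outside the rule summed to 9318 and 9512 CPM in R cells, against 3322 and 3973 CPM in S cells, 2511 and 1564 CPM in E cells and 25886 and 25434 CPM in T cells. Of the 9, 8 were called higher in R than in S cells and 8 lower than in T cells. The most abundant was Smcp, which encodes a cysteine-rich protein of sperm mitochondria, with 2051 and 2333 CPM in R cells, 721 and 1020 CPM in S cells and 276 and 246 CPM in E cells. Prm1, the first protamine and a gene of the L score, had 2972 and 1971 CPM in R cells. It had 2319 and 1768 CPM in S cells, 1418 and 1054 CPM in P cells and 3838 and 1728 CPM in E cells. The ratio of Tnp1 to Prm1 UMIs was 0.515 and 0.622 in R cells, while it lay between 0.306 and 0.340 in the other classes of mouse 1 and between 0.334 and 0.381 in those of mouse 2. Tnp1 is the first transition protein gene. Since Prm1 is in the L score, the ratio depends in part on the choice of cells and is given as a description.

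**Figure D2:**
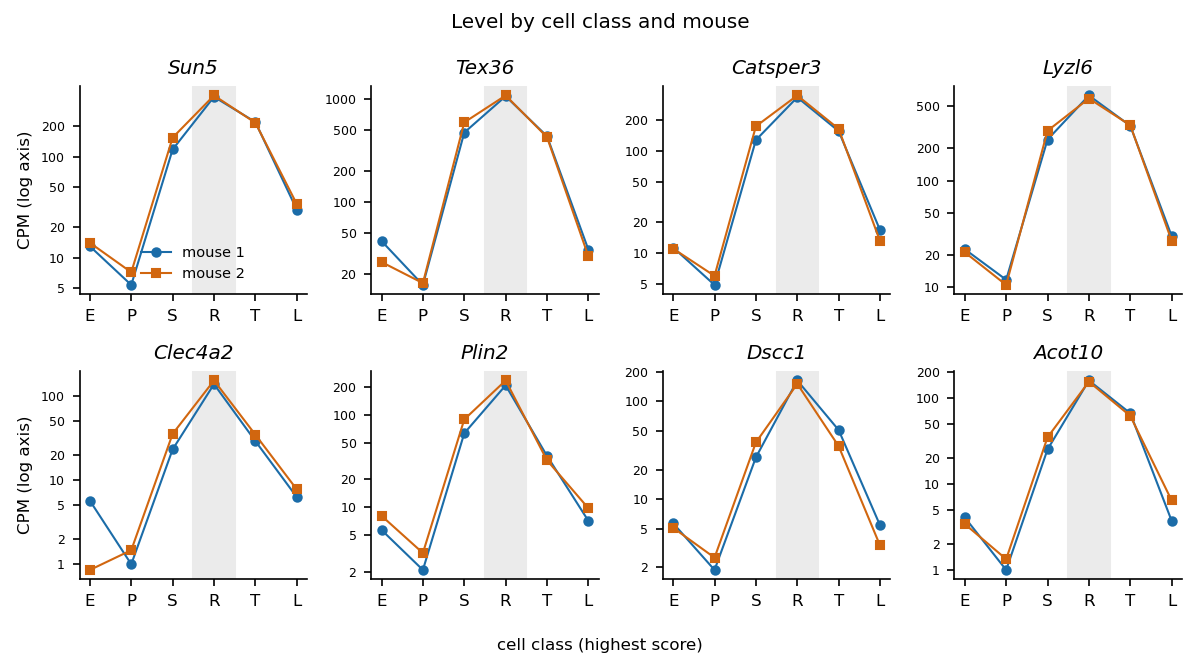
CPM (log axis) of 4 round spermatid markers (top) and 4 genes with their highest level in R cells (bottom) in the 6 cell classes, with circles for mouse 1 and squares for mouse 2; each point is the sum over all cells of a class in a mouse. In unscaled CPM, all 8 genes peak in the shaded R class in both mice. The bottom 4 were chosen for this. The top 4 were picked from 16 markers, of which 11 in mouse 1 and 10 in mouse 2 peak in R cells.

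A group of 641 genes outside the rule had at least 50 CPM in R cells of each mouse and their highest CPM of the 6 classes there. For comparison, 5312 genes reached 50 CPM in some class in each mouse, and the other classes held between 528 and 1357 highest genes. Here the level itself chose the genes, so no test is given. RIKEN or Gm names, given mostly to genes of unknown function, made up 133 of the 641 (20.7%), against 691 of the 5312 (13.01%). The share was 4.35% among genes highest in E cells, 19.7% among those highest in T cells and 22.3% among those highest in L cells. Protein-coding genes made up 86.0% of the R group, 83.9% of the T group and 84.7% of the L group, against 90.9% of the 5312. CPM are shares of a class's UMIs, so they move with the total of the class. After TMM scaling, 465 genes were highest in R cells, and 355 of these were among the 641.

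The genes that stood out most from the next class were Gm16163, Clec4a2, 4930432E11Rik, Dscc1, 4930558K02Rik, Dsg1a, Galnt7, Plin2, Fam179b, Ccdc186, Spsb1, Slc31a2, Vwa5b1, Acot10 and Gm7452. Gm16163 (chromosome 8, 124831698 to 124863703, GRCm38), annotated as a processed transcript, had 50.5 and 59.4 CPM in R cells of mouse 1 and mouse 2, 4.62 and 8.18 CPM in S cells and 9.23 and 6.08 CPM in T cells. Clec4a2 (chromosome 6, 123106428 to 123143999), a C-type lectin receptor gene best known from myeloid cells, had 138 and 153 CPM in R cells, 23.1 and 35.3 CPM in S cells and 29.0 and 34.5 CPM in T cells. The 7 macrophage markers together had 3.68 and 9.71 CPM in R cells, and the part of macrophage RNA in the level of Clec4a2 was not tested. Plin2 (chromosome 4, 86648386 to 86670060), which coats lipid droplets, had 210 and 237 CPM in R cells, 63.5 and 89.7 CPM in S cells and 36.0 and 32.3 CPM in T cells. Dscc1, a sister chromatid cohesion factor, had 164 and 151 CPM in R cells, 26.8 and 38.1 CPM in S cells and 51.0 and 34.9 CPM in T cells. Acot10, an acyl-CoA thioesterase gene, had 159 and 153 CPM in R cells, 25.03 and 34.6 CPM in S cells and 65.9 and 61.4 CPM in T cells. In all 5, the R libraries lay above every library of the other classes, which follows from choosing genes that stand out most in R cells. The remaining genes of this set include Galnt7, which starts O-linked sugar chains in the Golgi (92.1 and 98.8 CPM in R cells), Slc31a2, a copper transporter gene (70.6 and 69.5 CPM), and Spsb1, a substrate adaptor of a ubiquitin ligase (202 and 202 CPM).

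CREM and its relatives bind the cAMP response element (CRE), whose full form is TGACGTCA and whose short form is TGACG. The short form lies inside the full one, which reads the same on both strands. RFX factors, which drive ciliary genes, bind sites that hold GTTGCC. In the 250 bases before the start site of 27025 promoters from RefSeq (GRCm38.p6), the full CRE was present on either strand in 1.77%, the short form in 19.8% and GTTGCC in 11.8%. Of the 15 genes named above, 10 had an entry, and 0 of these held the full CRE, 3 the short form and 2 GTTGCC. Over the 641 genes, 509 (79.4%) had an entry, which is under 80%, so the comparison of motif shares is void. As a description, 10 of the 509 (1.96%) held the full CRE, as did 151 (3.58%) of the 4221 entries among the 5312 genes above. The windows of Ccdc186 and Acot10 are printed as examples of the 3 genes among the 15 with the short form. The third is Fam179b, whose short form starts 250 bases before the start site, at the edge of the searched stretch, and its window is not printed. Those of Tmc7, Nubpl and Ormdl3, from the same 641 genes, were chosen after the sequences had been seen, as examples of the 10 with the full CRE. They are the 3 of the 10 that were called higher in R than in S cells by the test described below. The other 7 (Fam174a, Klhl12, Suv39h2, Ociad1, Ppm1d, Znrd1 and Ing3) were not called against S cells, and Fam174a and Ing3 were called higher than in T cells. Capitals mark the CRE only, the sequence runs 5′ to 3′ on the strand of the gene, and a match is a description of the letters, not of binding.
Ccdc186: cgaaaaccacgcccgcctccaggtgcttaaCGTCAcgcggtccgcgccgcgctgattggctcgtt
Acot10: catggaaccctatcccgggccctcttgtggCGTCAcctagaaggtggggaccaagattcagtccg
Tmc7: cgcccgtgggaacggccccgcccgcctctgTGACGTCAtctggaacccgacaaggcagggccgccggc
Nubpl: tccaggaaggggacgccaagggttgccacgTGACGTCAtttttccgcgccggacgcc
Ormdl3: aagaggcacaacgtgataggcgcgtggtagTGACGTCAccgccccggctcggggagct

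The windows are chr19:56822234-56822298 (Ccdc186, minus strand), chr15:20666765-20666829 (Acot10, minus strand), chr7:118584698-118584765 (Tmc7, minus strand), chr12:52097689-52097745 (Nubpl, plus strand) and chr11:98587246-98587303 (Ormdl3, minus strand). All lie upstream of the annotated start, with the first base of the motif 69, 49, 49, 27 and 28 bases before it. The window of Nubpl also holds GTTGCC, in lower case just before the CRE. In Ccdc186 and Acot10 the short form lies on the opposite strand and appears as CGTCA. Ccdc186 had 302 and 322 CPM in R cells of mouse 1 and mouse 2, 93.7 and 115 CPM in S cells and 119 and 117 CPM in T cells. Tmc7, a transmembrane channel-like gene, had 229 and 242 CPM in R cells, 94.1 and 118 CPM in S cells and 128 and 126 CPM in T cells. Ormdl3, a regulator of sphingolipid synthesis, had 98.2 and 107 CPM in R cells, 15.9 and 22.8 CPM in S cells and 84.8 and 82.8 CPM in T cells. Nubpl, an assembly factor of the respiratory chain, had 74.97 and 79.9 CPM in R cells, 30.5 and 42.5 CPM in S cells and 47.0 and 57.3 CPM in T cells. For Tmc7, Ormdl3 and Nubpl the call against S cells follows from the choice of examples. None of these 4 genes was called against T cells, with log2 fold changes of 0.90 for Ccdc186, 0.39 for Tmc7, -0.21 for Ormdl3 and 0.06 for Nubpl.

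For the comparison with the neighbouring classes, UMIs were summed per mouse and class and tested with edgeR on 12 sums. The classes were set from 24 genes of the same cells, so a difference between them is in part fixed by the choice of cells. The calls say which other genes differed between the classes by more than the spread between the 2 mice, and nothing further is read from their number. Of 14196 rows tested, 2708 (19.1%) were higher and 1492 (10.5%) were lower in R than in S cells, at an adjusted p under 0.05 and at least 2-fold. Against T cells, 1769 (12.5%) were higher and 2545 (17.9%) were lower in R cells. Both comparisons use the same R sums. These splits depend on the processing. The number higher than in T cells was 986 when the scores came from cells thinned to 5000 UMIs, of which 928 were among the 1769, and 3347 without a filter on low counts. Without TMM scaling, 2227 (15.7%) were higher and 2254 (15.9%) lower against S cells, and 3557 (25.1%) higher and 1855 (13.1%) lower against T cells. The median log2 fold change of all rows was -0.06 against S and 0.03 against T with TMM, and -0.30 and 0.54 without it. Fold changes below are log2 values with TMM scaling, as estimate ± SE, while CPM are unscaled.

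The genes with the largest rise from S to R cells were 4930405D11Rik, Saxo1, Tmem144, Cct8l1, 4930513O06Rik, Klk1b7-ps, Adam6b, Adam6a, Klf5 and 4931428F04Rik. Saxo1, which encodes a stabiliser of axonemal microtubules, had 125 and 139 CPM in R cells of mouse 1 and mouse 2, against 4.62 and 7.23 CPM in S cells, which is a change of 4.68 ± 0.22 (adjusted p = 2.0e-11 in edgeR). Its level in T cells was again higher, at 264 and 303 CPM. Klf5, a zinc finger transcription factor gene, had 73.5 and 85.0 CPM in R cells, 3.35 and 6.40 CPM in S cells and 66.4 and 53.7 CPM in T cells. Its change was 4.22 ± 0.24 against S (adjusted p = 1.2e-10) and -0.09 ± 0.20 against T (adjusted p = 0.76), where the sign turned to 0.41 without TMM. Cct8l1, a testis paralogue of a chaperonin subunit gene, had 109 and 138 CPM in R cells and 5.74 and 8.18 CPM in S cells, a change of 4.36 ± 0.19. Adam6a and Adam6b are close copies of one sperm surface gene, and reads may be split between them, so their values of 4.24 ± 0.17 and 4.28 ± 0.20 are not independent. Except for 4930513O06Rik and Klf5, the 10 genes were lower in R than in T cells by the same test.

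The 10 with the largest fall from S to R cells were Slc2a8, Chgb, Rrm1, Nek2, Pabpc6, Yipf5, Dnaic2, Ilf2, Bms1 and Hspa5. Hspa5, the main chaperone of the endoplasmic reticulum, had 527 and 385 CPM in S cells of mouse 1 and mouse 2 and 91.1 and 57.7 CPM in R cells, a change of -2.38 ± 0.23 (adjusted p = 1.1e-07). Nek2, a centrosome kinase, had 172 and 107 CPM in S cells and 14.7 and 17.5 CPM in R cells, a change of -2.85 ± 0.23. Slc2a8, a hexose transporter gene, had 78.9 and 64.9 CPM in S cells and 7.35 and 5.11 CPM in R cells, the largest fall of the 10 at -3.31 ± 0.24. Rrm1, a subunit of ribonucleotide reductase, had 68.6 and 53.5 CPM in S cells and 7.11 and 5.96 CPM in R cells. The R libraries lay below both S libraries for each of these genes, which follows from picking the largest falls. Against T cells only Yipf5 of the 10 was called, with 12.7 and 10.4 CPM in R cells and 4.39 and 2.88 CPM in T cells.

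The 10 genes with the largest fold change towards T cells, and so lower in R cells, were Esyt3, Dcdc2c, Mgat4e, Zc2hc1b, Gm26871, Gm44599, Mphosph6, Sh3bp5, Gm13538 and Ifngr2. All 10 had under 10 CPM in R cells of both mice and over 50 CPM in T cells. Mgat4e, related to enzymes that branch N-linked sugars, had 3.19 and 4.09 CPM in R cells and 134 and 140 CPM in T cells, a change of -5.70 ± 0.21 (adjusted p = 1.5e-12). Dcdc2c, a doublecortin domain gene, had 2.69 and 2.72 CPM in R cells and 91.4 and 111 CPM in T cells, a change of -5.72 ± 0.27. Ifngr2, a subunit of the interferon gamma receptor, had 4.41 and 1.53 CPM in R cells and 76.0 and 83.8 CPM in T cells, a change of -5.35 ± 0.28. The R and T libraries did not overlap for these genes, which follows from picking the largest fold changes.

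Higher in R than in T cells were Cd27, Tssk5, Gm6588, Gm6309, 1700041C23Rik, Pole2, Gm3404, Smco4, Hat1 and Dopey2. Tssk5, a testis serine kinase gene, had 88.9 and 89.2 CPM in R cells of mouse 1 and mouse 2, 30.5 and 41.4 CPM in S cells and 2.20 and 3.52 CPM in T cells. The change was 4.401 ± 0.28 against T (adjusted p = 2.4e-10) and 1.54 ± 0.17 against S (adjusted p = 6.3e-07). 1700041C23Rik, annotated as a lincRNA, had 879 and 687 CPM in R cells, 454 and 462 CPM in S cells and 48.8 and 34.9 CPM in T cells. Tssk5, 1700041C23Rik and Dopey2 were higher in R than in both neighbours. Cd27, a receptor of the tumour necrosis factor family, had 90.7 and 65.4 CPM in R cells and 85.9 and 77.9 CPM in S cells, but 1.76 and 1.92 CPM in T cells. Hat1, a histone acetyltransferase that acts on new histones, had 80.4 and 78.0 CPM in R cells, 102 and 120 CPM in S cells and 4.83 and 5.44 CPM in T cells. Gm6588, Gm6309 and Gm3404 are numbered gene models on chromosome 5, and reads shared between similar copies could affect their values.

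Gene lists chosen for the tissue are given by counts and medians (log2 fold change). Over all rows tested, 19.1% were higher and 10.5% lower than in S cells with a median of -0.06, and 12.5% were higher and 17.9% lower than in T cells with a median of 0.03. Without TMM these became 15.7%, 15.9% and -0.30 against S, and 25.1%, 13.1% and 0.54 against T, so that list counts and medians also shift. The plot of list medians shows them in both comparisons. Among acrosome genes, 18 of 37 tested (48.6%) were higher and 1 was lower in R than in S cells, with a median of 0.99 (0.75 without TMM, with 13 higher and 1 lower). Spam1, a hyaluronidase of the sperm surface and acrosome, had 277 and 283 CPM in R cells of mouse 1 and mouse 2, 122 and 143 CPM in S cells and 16.7 and 23.0 CPM in T cells. It was called higher in R than in both neighbours, by 1.32 ± 0.14 against S (adjusted p = 3.5e-07) and 3.29 ± 0.18 against T (adjusted p = 2.6e-11). Its neighbour on chromosome 6, Hyal5, also a sperm hyaluronidase gene, had 270 and 272 CPM in R cells, 66.3 and 88.7 CPM in S cells and 190 and 209 CPM in T cells. Sppl2c, a signal peptide peptidase-like gene, rose on through T cells, from 12.8 and 15.9 CPM in S cells to 74.2 and 83.3 CPM in R cells and 381 and 397 CPM in T cells. Against T cells, 3 acrosome genes were higher (Spam1, Dpy19l2 and Zpbp2) and 3 were lower (Cylc1, Sppl2c and Actl9), with a median of -0.03 that became 0.47 without TMM. The gene that fell from S to R was Gopc, a Golgi protein needed for the acrosome, from 7.81 and 5.10 CPM to 1.72 and 1.19 CPM.

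**Figure D3:**
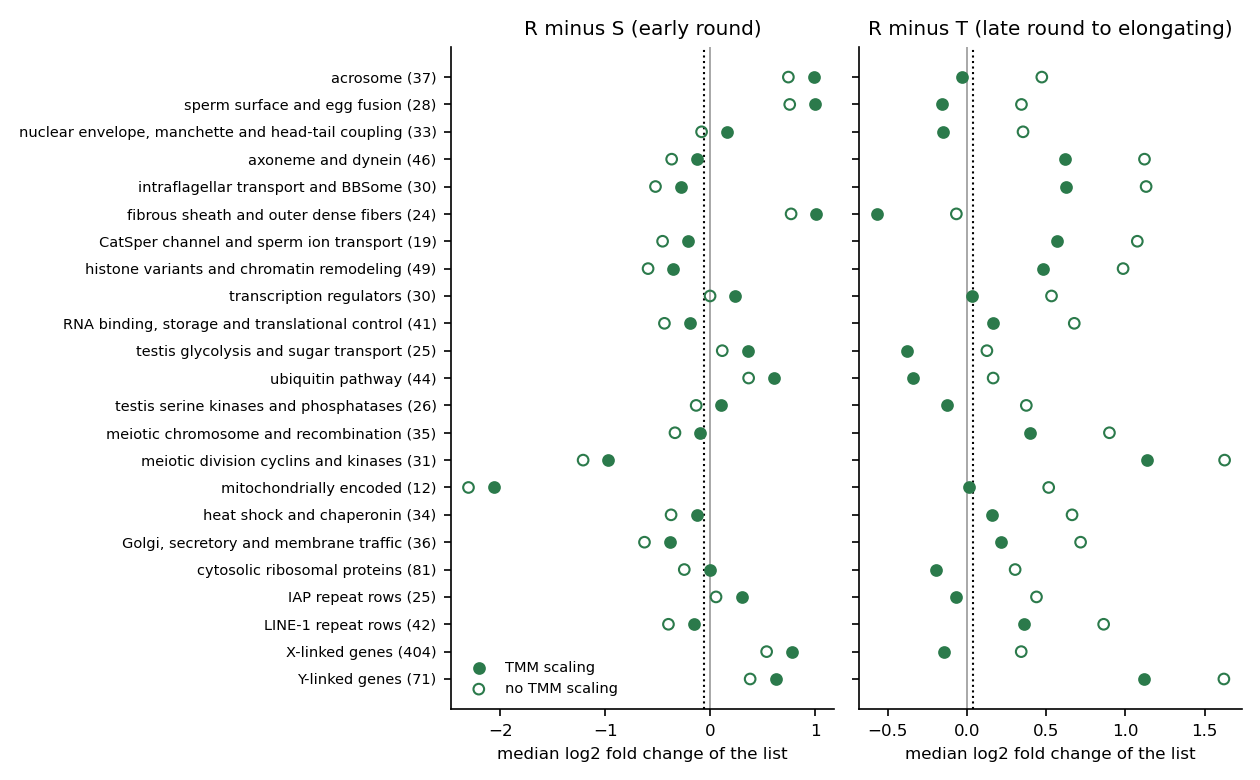
Median log2 fold change of each gene list (rows, with the number of members tested) between R and S cells (left) and between R and T cells (right), with TMM scaling (filled) and without it (open); the dotted line is the median of all 14196 rows with TMM, the grey line 0. Mitochondrially encoded genes lie lowest on the left, meiotic division genes and Y-linked genes highest on the right, and dropping the scaling shifts every list by about the same amount.

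Sperm surface and fusion genes had 14 of 28 tested members higher and 0 lower than in S cells, with a median of 1.0015 (0.76 without TMM, with 12 and 0). At an unadjusted p under 0.05 in edgeR, 17 were higher and 6 lower, and DESeq2 called 14 and 0. Izumo1, the sperm protein that binds the egg receptor JUNO, had 220 and 225 CPM in R cells of mouse 1 and mouse 2, 95.8 and 107 CPM in S cells and 212 and 231 CPM in T cells. Its rise over S cells was 1.37 ± 0.13 (adjusted p = 9.2e-08). Calr3, a testis chaperone of sperm surface proteins, had 80.4 and 88.6 CPM in R cells, 10.8 and 13.3 CPM in S cells and 536 and 580 CPM in T cells. It was one of 4 members lower in R than in T cells, with Adam4, Adam6a and Adam6b, while Adam1b and Adam26a were higher. The median against T was -0.16, and without TMM it was 0.34, with 5 higher and 3 lower. For Calr3 the R level lay between those of S and T cells in both mice.

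Fibrous sheath and outer dense fibre genes had 12 of 24 tested members higher and 0 lower than in S cells (median 1.01), and 3 higher and 8 lower than in T cells (median -0.57). Without TMM the medians were 0.77 and -0.07, and against T cells 5 were higher and 3 lower. Against S cells, 19 were higher and 1 lower at an unadjusted p under 0.05 in edgeR, and DESeq2 called 13 and 0. Odf3, an outer dense fibre gene, had 569 and 609 CPM in R cells of mouse 1 and mouse 2, 125 and 175 CPM in S cells and 588 and 658 CPM in T cells. Akap4, the main scaffold of the fibrous sheath, had 591 and 632 CPM in R cells, 220 and 263 CPM in S cells and 1060 and 1116 CPM in T cells. Fsip1, a partner of that sheath, went the other way, with 391 and 391.8 CPM in R cells, 335 and 364 CPM in S cells and 59.8 and 54.1 CPM in T cells. Axonemal and dynein genes had 2 of 46 higher and 7 lower than in S cells, and 10 higher and 4 lower than in T cells. Their medians were -0.12 and 0.62, or -0.37 and 1.12 without TMM, where 11 were lower than in S cells and 26 were higher than in T cells. Dnah9, an axonemal dynein heavy chain gene, rose from 5.10 and 5.10 CPM in S cells to 33.6 and 35.2 CPM in R cells, while Dnaic2, a dynein intermediate chain gene, fell from 78.0 and 65.2 CPM to 9.80 and 10.2 CPM. Spag6, a central pair protein, stayed within 2-fold of S cells with 721 and 735 CPM in R cells and was lower in T cells, at 146 and 152 CPM (1.79 ± 0.14, adjusted p = 2.8e-09).

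Intraflagellar transport and BBSome genes, which carry cargo along the growing tail, had 2 of 30 higher and 7 lower than in S cells, and 8 higher and 5 lower than in T cells. Their medians were -0.27 and 0.63, or -0.52 and 1.13 without TMM, where 17 were higher and 3 lower than in T cells. Ift43 had 508 and 508 CPM in R cells of mouse 1 and mouse 2, 550 and 548 CPM in S cells and 108 and 79.3 CPM in T cells. Ift172 took the opposite course, with 117 and 128 CPM in R cells, 62.8 and 69.3 CPM in S cells and 453 and 468 CPM in T cells. These 2 components of one transport machine were called in opposite directions between R and T cells. CatSper and other ion transport genes had 6 of 19 higher and 2 lower than in S cells, and 3 higher and 2 lower than in T cells. Their medians were -0.21 and 0.57. Without TMM, 3 were higher and 3 lower than in S cells, and 9 higher and 1 lower than in T cells. Lrrc52, which associates with a sperm potassium channel, had 129 and 139 CPM in R cells, 30.1 and 47.1 CPM in S cells and 111 and 112 CPM in T cells. Atp1a4, the sperm sodium pump subunit, had 207 and 221 CPM in R cells, 52.1 and 62.9 CPM in S cells and 340 and 373 CPM in T cells.

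Among 49 histone and chromatin remodelling genes tested, 8 (16.3%) were higher and 6 (12.2%) lower than in S cells, which is near the shares of all rows, and 14 (28.6%) were higher and 7 (14.3%) lower than in T cells. Their medians were -0.35 and 0.48, or -0.59 and 0.99 without TMM, where 8 were higher and 9 lower than in S cells and 21 higher and 4 lower than in T cells. Cdyl, a chromodomain protein gene, had 356 and 353 CPM in R cells of mouse 1 and mouse 2, against 24.2 and 24.9 CPM in S cells and 984 and 965 CPM in T cells, a change of 4.09 ± 0.19 from S to R (adjusted p = 2.0e-11). H1fnt, the testis linker histone H1T2, had 581 and 675 CPM in R cells, 75.1 and 91.9 CPM in S cells and 1575 and 1780 CPM in T cells. Hils1, another spermatid linker histone, had 1581 and 1740 CPM in R cells, 552 and 706 CPM in S cells and 2715 and 2979 CPM in T cells. All 3 rose stepwise from S through R to T cells in both mice. Tnp1 rose by 1.26 ± 0.23 from S to R (adjusted p = 0.00017) and differed by -3.50 ± 0.25 from T. H2afz, Kdm3a, Nap1l4, H2afx, Uhrf1 and Kat5 fell from S to R cells.

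Transcription regulators had 10 of 30 tested members higher and 1 lower than in S cells, and 7 higher and 3 lower than in T cells. Without TMM, 8 were higher and 5 lower than in S cells, with a median that went from 0.23 to just below 0, and 11 were higher and 1 lower than in T cells. Crem had 708 and 804 CPM in R cells of mouse 1 and mouse 2, 621 and 728 CPM in S cells and 343 and 363 CPM in T cells, with changes of 0.41 ± 0.14 and 0.59 ± 0.15 that were under 2-fold. Fhl5, the testis coactivator of CREM also known as ACT, had 612 and 689 CPM in R cells, 90.1 and 136 CPM in S cells and 1408 and 1558 CPM in T cells. The rise of Fhl5 by 2.76 ± 0.19 over S cells (adjusted p = 1.2e-09) was accompanied by a difference of -1.69 ± 0.18 from T cells. Taf7l, an X-linked paralogue of a TFIID subunit gene, was the single member higher than in both neighbours, with 41.9 and 47.7 CPM in R cells, 22.5 and 26.7 CPM in S cells and 8.35 and 8.64 CPM in T cells. Sox5 had 622 and 674 CPM in R cells, 268 and 335 CPM in S cells and 323 and 309 CPM in T cells. Rfx4, Sox6, Nr6a1, Creb3l4, Klf17, Trim66 and Zfy2 were also higher than in S cells, by 1.22 to 3.26. Ovol1 was lower, by -1.85 ± 0.39, at 1.47 and 2.04 CPM in R cells. Tbp, the TATA-binding protein gene, had 61.2 and 60.3 CPM in R cells, 137 and 138 CPM in S cells and 10.1 and 6.40 CPM in T cells, and Tbpl1, its spermatid paralogue, had 648 and 621, 1305 and 1204, and 154 and 150 CPM. Tbp, Tbpl1, Foxj1, Ovol2, Mtf2, Zfp541 and Taf7l were higher than in T cells, while Tcfl5, Fhl5 and Zfy2 were lower. Mybl1, Nr2c1, Nr2c2, Rfx1, Rfx2, Rfx3, Sox30, Gtf2a1l, Zfy1, Egr4 and Tle4 were called in neither comparison, and Egr4 had 0 UMIs in R cells of both mice.

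Kit, a receptor kinase gene of which spermatids make a truncated form, had 12.98 and 9.20 CPM in R cells of mouse 1 and mouse 2, 0.478 and 0.593 CPM in S cells and 3.52 and 2.24 CPM in T cells. It was higher than in both neighbours, by 4.50 ± 0.44 (adjusted p = 1.1e-07) and 1.46 ± 0.43 (adjusted p = 0.0091). These 3' counts do not tell the truncated from the full transcript. Pou5f1, the pluripotency factor gene OCT4, had 1.23 and 1.70 CPM in R cells, 0 and 0.119 CPM in S cells and 26.8 and 20.5 CPM in T cells, and was lower in R than in T cells by -4.45 ± 0.41. Against S cells it was called higher (adjusted p = 0.00095), with 5 and 10 UMIs in R cells of mouse 1 and mouse 2, so the size of that change rests on few molecules.

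Ubiquitin pathway genes had 16 of 44 tested members higher and 1 lower than in S cells, and 1 higher and 12 lower than in T cells. Their medians were 0.61 and -0.34. Without TMM, 10 were higher and 4 lower than in S cells, and 7 higher and 5 lower than in T cells, where the median turned to 0.16. Asb17, a cullin ligase adaptor gene, had 199 and 221 CPM in R cells of mouse 1 and mouse 2, 23.4 and 30.4 CPM in S cells and 560 and 603 CPM in T cells. Rnf148, a RING ligase gene, had 86.7 and 92.6 CPM in R cells, 6.22 and 9.49 CPM in S cells and 171 and 196 CPM in T cells. Rnf133, another RING ligase gene, had 112 and 135 CPM in R cells, 19.8 and 20.99 CPM in S cells and 369 and 408 CPM in T cells. For all 3 the R level lay between those of S and T cells. Testis kinases and phosphatases had 9 of 26 higher and 1 lower than in S cells, and 3 higher and 7 lower than in T cells. Their medians were 0.11 and -0.13, and both turned without TMM, to -0.13 and 0.37, with 5 higher and 2 lower against S and 5 higher and 4 lower against T. Camk4, a calmodulin kinase of spermatid nuclei, had 132 and 138 CPM in R cells, 14.3 and 22.4 CPM in S cells and 139 and 129 CPM in T cells. Glycolysis genes had 7 of 25 higher and 1 lower than in S cells, and 2 higher and 5 lower than in T cells. Their medians were 0.36 and -0.38, or 0.12 and 0.13 without TMM, with 4 higher and 3 lower against S and 2 and 2 against T. Gapdhs, the sperm form of the glycolytic dehydrogenase, had 587 and 678 CPM in R cells, 249 and 351 CPM in S cells and 1090 and 1281 CPM in T cells, whereas Slc2a3, a glucose transporter gene, fell from 145 and 118 CPM in S cells to 29.6 and 21.1 CPM in R cells.

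Of 31 cyclins and division kinases tested, 14 were lower and 1 was higher than in S cells (median -0.97), and 15 were higher and 1 was lower than in T cells (median 1.137). Without TMM, 18 were lower than in S cells (median -1.21) and 20 higher than in T cells (median 1.63). Aurka, a spindle kinase, had 354 and 277 CPM in S cells of mouse 1 and mouse 2, 55.4 and 48.5 CPM in R cells and 22.4 and 23.7 CPM in T cells. Ccna1, the meiotic cyclin, had 345 and 321 CPM in S cells, 82.1 and 97.7 CPM in R cells and 31.6 and 28.8 CPM in T cells. Bub1, a spindle checkpoint kinase, had 145 and 165 CPM in S cells, 86.5 and 85.8 CPM in R cells and 9.67 and 6.72 CPM in T cells. Ccne2, an S phase cyclin, was the exception that rose. Meiotic chromosome genes had 5 of 35 (14.3%) higher and 4 (11.4%) lower than in S cells, which is near the shares of all rows, and 7 higher and 4 lower than in T cells. Without TMM, 9 were lower than in S cells and 12 higher than in T cells. The 5 included Rad21, a cohesin subunit, with 44.8 and 46.1 CPM in R cells, 7.81 and 7.95 CPM in S cells and 106 and 135 CPM in T cells, and Syce2, a synaptonemal complex gene, with 222 and 238 CPM in R cells and 60.4 and 75.4 CPM in S cells.

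Mitochondrially encoded transcripts were scarce in R cells. The 2 mice had 0.0392% and 0.0346% of their R cell UMIs on them, compared with 0.142% and 0.125% in S cells, 0.0202% and 0.0220% in T cells and 0.807% and 0.832% in E cells. Of 12 tested, 11 were lower than in S cells (median -2.05) and 0 differed from T cells by the threshold in either direction. At an unadjusted p under 0.05 in edgeR, 0 were higher and 1 lower than in T cells, and DESeq2 called 0. Without TMM, 11 were again lower than in S cells and 1 was higher than in T cells. mt-Nd4, a subunit of respiratory complex I, had 34.8 and 36.6 CPM in R cells, 264 and 256 CPM in S cells and 23.7 and 25.9 CPM in T cells, a change of -2.62 ± 0.16 from S to R (adjusted p = 2.4e-10). The share thus fell between S and R cells in both mice. Heat shock and chaperonin genes had 7 of 34 higher and 2 lower than in S cells, with Dnajb7 at 232 and 252 CPM in R cells against 20.2 and 30.5 CPM in S cells. Golgi and membrane traffic genes had 3 of 36 higher and 6 lower, RNA-binding genes 3 of 41 higher and 5 lower, nuclear envelope and manchette genes 11 of 33 higher and 2 lower, and ribosomal protein genes 1 of 81 higher and 2 lower. Pabpc6, a testis poly-A binding protein gene, fell from 217 and 171 CPM in S cells to 24.99 and 22.3 CPM in R cells. Against T cells the same lists had 7, 6, 7, 2 and 2 genes higher and 7, 4, 3, 5 and 0 lower, in that order. Without TMM they had 5, 1, 2, 9 and 1 higher and 3, 9, 7, 2 and 4 lower than in S cells, and 14, 12, 14, 5 and 4 higher and 4, 3, 1, 4 and 0 lower than in T cells. Of these 5 lists, the medians of the nuclear envelope genes and of the ribosomal protein genes turned in both comparisons. They went from 0.16 to -0.08 and from 0.00 to -0.25 against S, and from -0.15 to 0.35 and from -0.20 to 0.30 against T.

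**Figure D4:**
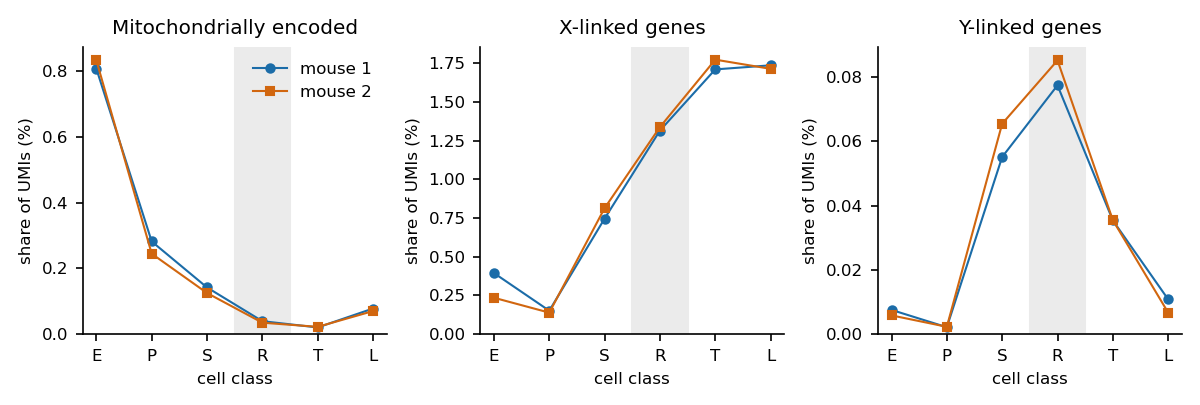
Share of all UMIs (percent, from 0) on mitochondrially encoded genes, on X-linked genes and on Y-linked genes in the 6 cell classes, with circles for mouse 1 and squares for mouse 2 and R cells shaded. The mitochondrial share is 0.0392% and 0.0346% in R cells, the X share is between those of S and T cells, and the Y share is highest in R cells in both mice.

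X-linked genes took 1.32% and 1.34% of R cell UMIs in mouse 1 and mouse 2, compared with 0.747% and 0.814% in S cells and 1.71% and 1.77% in T cells. Of 404 X-linked genes tested, among 2611 in the annotation, 152 (37.6%) were higher and 20 (4.95%) lower than in S cells, with a median of 0.78. Without TMM, 125 were higher and 26 lower, with a median of 0.54. Against T cells, 58 (14.4%) were higher and 104 (25.7%) lower, with a median of -0.15. Without TMM this turned to 93 higher and 53 lower, with a median of 0.34. 4930513O06Rik had 61.0 and 69.8 CPM in R cells, 2.71 and 4.74 CPM in S cells and 52.3 and 60.8 CPM in T cells. Among the genes that fell was Ssxb3, a relative of the S genes Ssxb1 and Ssxb2, with 33.6 and 35.0 CPM in S cells and 0 and 0.681 CPM in R cells. Reads of such copies may be shared, and Ssxb1 and Ssxb2 set the S class, so the fall of Ssxb3 is not independent of the choice of cells.

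Y-linked genes took 0.0774% of UMIs in R cells of mouse 1 and 0.0852% in mouse 2, the highest share of the 6 classes in each mouse. The share was 0.0551% and 0.0655% in S cells and 0.0354% and 0.0355% in T cells. Of 71 Y-linked genes tested, among 1570 in the annotation, 13 (18.3%) were higher and 0 lower than in S cells, where the share of higher rows is near that of all rows, and 25 (35.2%) were higher and 3 (4.23%) lower than in T cells. Their medians were 0.63 and 1.115. Without TMM, 7 were higher and 1 lower than in S cells (median 0.38), and 44 higher and 1 lower than in T cells (median 1.62). At an unadjusted p under 0.05 in edgeR, 29 were higher and 1 lower than in S cells, and DESeq2 called 10 and 0. Against T cells DESeq2 called 12 higher and 3 lower. In mouse 1, 52 of the 71 had their highest unscaled CPM in R cells, and in mouse 2 this held for 49. Over all 14196 rows the numbers were 1917 and 1900. Zfy2, a zinc finger gene of the Y short arm, did not belong to them, with 19.8 and 21.97 CPM in R cells, 4.62 and 7.12 CPM in S cells and 26.8 and 38.1 CPM in T cells. Gm20830 had 51.2 and 67.4 CPM in R cells, 34.4 and 44.8 CPM in S cells and 15.8 and 23.0 CPM in T cells. Many Y-linked rows are numbered gene models of multicopy families, which may share reads and are not separate observations.

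Repeat rows were 1.39% and 1.53% of UMIs in R cells of mouse 1 and mouse 2. Of 25 IAP rows tested, 7 were higher and 2 lower than in S cells, and 3 higher and 4 lower than in T cells. Without TMM, 5 were higher and 6 lower than in S cells, and 6 higher and 0 lower than in T cells. The row of the internal sequence IAPLTR1a_I_MM_ERV2_Mus, of an endogenous retrovirus, had 359 and 356 CPM in R cells, 762 and 842 CPM in S cells and 46.6 and 47.3 CPM in T cells, a change of 2.42 ± 0.20 against T (adjusted p = 6.4e-09). Its change of -0.92 ± 0.17 against S was under 2-fold. Of 42 LINE-1 rows tested, 0 differed from S cells by the threshold, with 1 higher and 4 lower at an unadjusted p under 0.05 in edgeR and 0 called by DESeq2. The same test gave 3 that were higher than in T cells, among them L1MdGf_II_L1_Mus with 32.8 and 30.5 CPM in R cells and 9.23 and 10.6 CPM in T cells. Against T cells, 18 were higher at an unadjusted p under 0.05, DESeq2 called 2, and 15 were called without TMM.

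Within the R class, the genes with the largest ratio of variance to mean included Malat1, mt-Nd1, mt-Cytb, Hmgb4, AA467197, Tnp1 and H1fnt. This ratio was not adjusted for the level of a gene, and called doublets were kept. The ratio of variance to mean of UMIs, with all cells brought to a common total, had a median of 1.23 in mouse 1 and 1.21 in mouse 2 over 4782 genes. Malat1, a nuclear non-coding RNA, had ratios of 23.3 and 13.2 at 55.3 and 52.6 UMIs per cell. mt-Nd1 had ratios of 10.5 and 11.6 at 1.76 and 1.64 UMIs per cell. Hmgb4, a spermatid chromatin protein gene, had ratios of 8.56 and 6.76, and its level rose from 358 and 384 CPM in S cells to 1861 and 1794 CPM in R cells and 4758 and 4468 CPM in T cells. AA467197 went the other way, from 2101 and 1867 CPM in S cells to 688 and 666 CPM in R cells and 156 and 134 CPM in T cells. Hmgb4, Tnp1 and H1fnt had higher CPM at each step from S through R to T cells in both mice, and AA467197 lower CPM. The ratio for Tnp1 was 16.6 in mouse 1 and 5.01 in mouse 2, the widest gap between the mice among the genes named here.

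The members were also compared by their second score, as a description without a test because the scores divide the cells. Higher in members with T as second score were Fndc8, 4930548H24Rik, Tmem144, Dennd6b, Fbxo39 and 4930405D11Rik. Fndc8 had 118 and 120 CPM in these cells of mouse 1 and mouse 2 and 12.97 and 14.2 CPM in members with S as second score. Fbxo39, a ubiquitin ligase adaptor gene, had 63.0 and 52.9 CPM against 8.19 and 4.88 CPM, and was at 4.62 and 5.46 CPM in S cells and 251 and 272 CPM in T cells. Higher in members with S as second score were Gm6588, Spag1, 1700040L02Rik, Rfx8, Hsp90b1 and Vcp. Hsp90b1, a chaperone of the endoplasmic reticulum, had 106 and 97.2 CPM there and 31.8 and 29.0 CPM in the members with T as second score. Rfx8 had 79.2 and 84.0 CPM against 23.4 and 19.6 CPM. These genes were picked for the largest ratio between the sets of members, so the size and direction of the ratio follow from the choice. At 5000 UMIs, the median number of genes was 2338 and 2337 in members towards S and lower in members towards T, at 2283.5 and 2299.5.

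**Figure D5:**
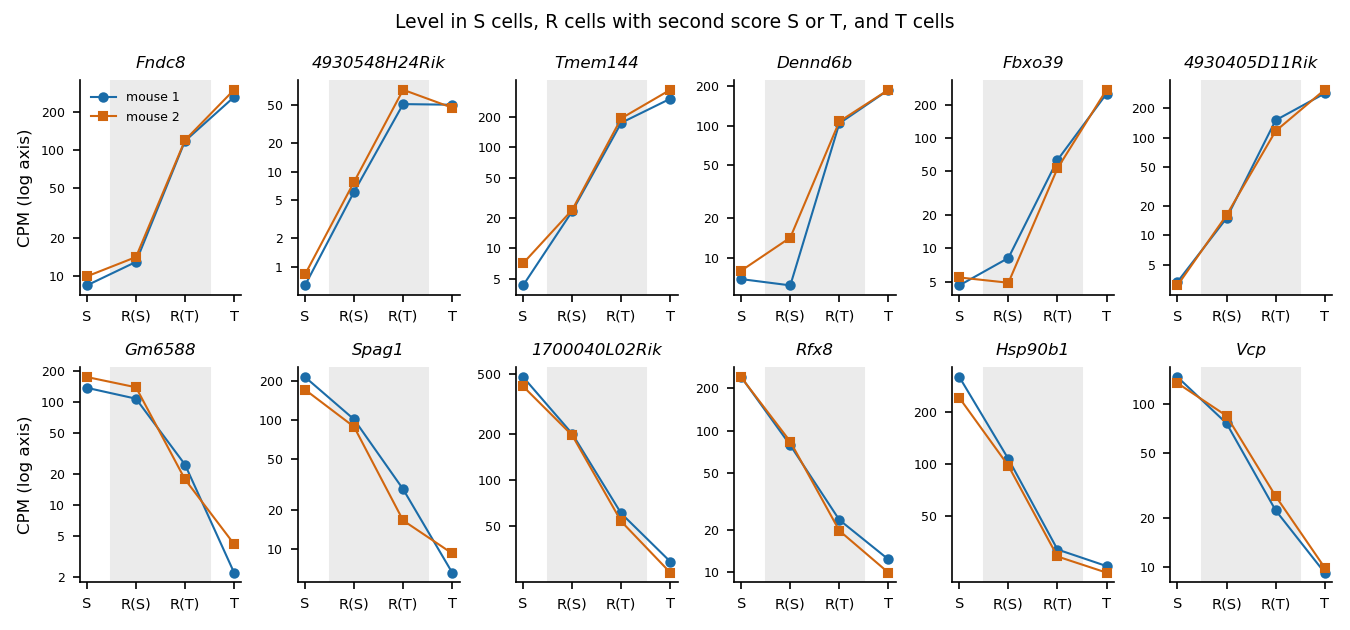
CPM (log axis) of the 12 genes named for the difference inside the class, in S cells, R cells with second score S, written R(S), R cells with second score T, written R(T), and T cells, with circles for mouse 1 and squares for mouse 2 and the R cells shaded. The top row was picked for a rise and the bottom row for a fall across the class, from 12.97 and 14.2 to 118 and 120 CPM for Fndc8 and from 106 and 97.2 to 31.8 and 29.0 CPM for Hsp90b1.

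Between the mice, 6757 genes had at least 100 UMIs in R cells of both mice together. Of these, 35 exceeded 2-fold towards mouse 2 and 8 towards mouse 1, which is 1 animal against 1 animal and has no test. Ybx1, a Y-box RNA-binding protein gene, had 447 CPM in R cells of mouse 1 and 1806 CPM in mouse 2. The same direction was present in S cells, at 532 and 2054 CPM, and in T cells, at 345 and 1458 CPM, so the difference was not particular to R cells. Rnf187 (16.4 and 87.0 CPM), Klf9 (22.05 and 97.9), Etnk1 (12.7 and 56.9) and Otud3 (23.0 and 89.7) were also higher in mouse 2. Gm14516, Gm9043, Dynlt1b, Hist2h2aa1 and Insl3 were higher in mouse 1, with Hist2h2aa1 at 125 CPM in mouse 1 and 54.2 CPM in mouse 2. Insl3, a Leydig cell hormone gene, had 16.2 and 6.81 CPM in R cells and 59.2 and 100 CPM in L cells, so its direction was the opposite there. It was also opposite in P cells, at 14.002 and 17.8 CPM, while the excess in mouse 1 was present in S cells (19.3 and 6.40 CPM), T cells (15.4 and 8.64 CPM) and E cells (16.2 and 4.67 CPM) and so was not particular to R cells.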

How the data were processed

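Testis cells of 2 mice were captured in droplets, with 1 library each. Per the labels and the study's methods, the authors demultiplexed with bcl2fastq 2.17.1.14 and counted and combined both libraries with Cell Ranger 2.0.0, downsampling reads, against a repeat-masked GRCm38 with Ensembl 89 genes and RepBase sequences. The deposited values are whole UMI counts for 51868 rows, of which 50686 are genes and 1182 repeats. The barcode ending 1 or 2 was taken as the mouse of the same number in the labels, which is an assumption, since the order in which the libraries were combined is not given in the sources used here.

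The members and gene lists were chosen with earlier results of these data known. UMIs were summed per mouse and class and tested with edgeR 4.0.16 (quasi-likelihood, TMM, filterByExpr) in R 4.3.3, with adjusted p from Benjamini-Hochberg over all 14196 rows. The spread was estimated once over all 6 classes, because a class has only 2 sums. The 24 score genes were not tested. The alternatives were DESeq2 1.42.0, other scaling, filters, memberships and a mouse block. Sums of the same number come from 1 animal, and their deviations from the class means had correlations of -0.0125 to 0.209 over all pairs of classes (0.203 for R and S, 0.135 for R and T). Python 3.11.15, scanpy 1.11.5 (scrublet, 25 doublets called and kept) and matplotlib 3.10.9 were used. Thinning drew 5000 UMIs per cell with 42 as seed. Gene positions are from GENCODE M21, matched by identifier for 50376 genes.

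Named genes are the 10 with the largest fold change per direction and comparison (at least 50 CPM in the higher class of each mouse), up to 4 called members of each list (at least 20 CPM), the 15 that exceed the next class most, the 8 with the largest variance to mean ratio (at least 0.5 UMI per cell), of which 1 is not reported here, the 6 per direction between members by second score, the 5 per direction between the mice, the score genes, the markers, Kit, Pou5f1 and the transcription regulators. Other genes of the lists were named to show the range after their values had been seen. The 2 mice were littermates per the study's text, and p-values measure the spread between them only.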

Additional observations from a re-analysis of the deposited data

How the results depend on the processing

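In all, 115 values of counts, shares and per-cell measures were recomputed, of which 103 stayed within their limit. The limit was 1.5-fold for numbers of genes and the exact binomial interval for R cells, whose numbers and shares were both included. For per-cell measures it was the spread between the mice. Leaving out a mouse could not exceed that spread, which came from the same mice, so those values do not test stability. The UMIs per cell of R minus T stayed within it at both -908 and 1255. Calls were recomputed for the genes with the largest fold change, each in the comparison that chose it. The genes that exceed the next class most were recomputed in both comparisons. Of these 910 values, 0 reversed, 8 lost and 13 gained the call, all against T cells (Fam179b, Slc31a2, Ccdc186, Spsb1, Vwa5b1, Acot10, Gm7452). Named genes outside these sets were not among the values. Neither was Klf5 against T cells, whose sign turned without TMM. Without TMM, an alternative added after seeing the data, 2254 rows were lower than in S cells in place of 1492, and 3557 were higher than in T cells in place of 1769. The latter count was 3347 without a filter on low counts and 986 when the scores came from cells thinned to 5000 UMIs, of which 928 were among the 1769. With the mouse as a block, the paired counts were 2746 higher and 1548 lower against S, and 1830 higher and 2584 lower against T, which moved no count by over 1.5-fold. Leaving out a mouse for the 2 classes compared gave 2087 to 2314 higher and 1249 to 1394 lower against S, and 1294 to 1534 higher and 2049 to 2238 lower against T. There the lone sum of each class is assumed to vary like the other classes. Cells leading by at least 0.25 numbered 155 (12.5%) in mouse 1 and 219 (16.7%) in mouse 2, fewer by construction. Dropping any 1 of the 4 R genes gave 175 to 184 cells in mouse 1 and 251 to 265 in mouse 2. Genes per cell in R minus S averaged -40 over the mice, and 151.75 without thinning. R minus T averaged 222, with 609 without thinning, 275.6 by means and 230.5 with the margin; the cause was not tested. The UMIs per cell of R minus T differed in sign between the mice, at -908 and 1255 by medians, and were -435 and -1590 by means. Depth limits genes with few molecules, since R cells of mouse 1 sum to 4081634 UMIs.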
